A study of Mus musculus with 8 samples.

Results

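Zfp42, the gene of the zinc finger protein REX1, and a noncoding interval of the same chromosome were examined in wild-type mouse embryos that differed in the genotype of their father. The interval is named by the array design as chr8:41730287-41746862 of mm9 and is 16576 bases long, with probes to its F and its R strand. The members were chosen by their father difference in these embryos: all probes for Zfp42 and all probes for this interval were taken, which gave 11 of the 55681 probes of the array, 1 for Zfp42, 5 for the F strand and 5 for the R strand. The father difference of the members is therefore given as a description, with no test. Of the 11 probes 4 passed the filter on dim probes (signal well above background on 4 arrays or more, and a mean level outside the lowest 20%), namely the Zfp42 probe and 3 F probes.

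All 8 embryos were Eed wt/wt, were collected at E8.5 and had wild-type mothers, of the C57bl6/129 background by the labels and C57bl/6J by a supplementary legend of the study. They came from the Eedl7Rn5-1989SB colony, which carries a hypomorphic allele of Eed, a core subunit of the Polycomb repressive complex PRC2. Of the embryos 4 were sired by WT (Eed wt/wt) fathers and 4 by HET (Eed hypo/wt) fathers, with 2 females and 2 males in either group. Of the embryo codes in the labels, those of 3 embryos of WT fathers begin alike, and those of HET fathers do not. The comparison asked whether reduced EED in the father altered expression in genetically wild-type offspring. RNA of each embryo was hybridised to a one-colour Agilent array, and a level is given throughout as log2 of the processed intensity minus the 75th percentile of its array, so that 0 is the level of the 75th percentile and a difference of 1 is 2-fold.

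REX1 belongs to the YY1 family of zinc finger proteins and is a widely used marker of the naive pluripotent state. Its gene is on in the inner cell mass and in embryonic stem cells, falls as the epiblast is primed for gastrulation, and stays on in parts of the extraembryonic ectoderm and in male germ cells. REX1 is a substrate of the ubiquitin ligase RLIM in the control of X inactivation, and binding to the imprinted domains of Peg3 and Gnas has been described for it. The interval belongs to the probes that the array carries for candidate long intergenic noncoding transcripts, whose strand is named F or R.

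The Zfp42 promoter is shown because it holds an octamer, the motif bound by POU factors such as OCT4. The 250 bases before the start site, on the minus strand of chr8:43307010-43307259 in GRCm38.p6, are given from RefSeq, with the octamer in capitals.
Zfp42 promoter: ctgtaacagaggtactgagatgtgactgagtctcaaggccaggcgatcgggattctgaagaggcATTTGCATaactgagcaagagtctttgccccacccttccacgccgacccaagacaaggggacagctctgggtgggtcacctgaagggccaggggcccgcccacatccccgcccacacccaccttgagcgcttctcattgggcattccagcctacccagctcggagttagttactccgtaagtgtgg
The octamer (ATTTGCAT, or ATGCAAAT on the other strand) began 186 bases before the start site. It was found in 526 of 32851 RefSeq promoters of this length, or 1.6%, and in none of the 14 genes of the pluripotency list that had a promoter entry. The promoters of the neighbouring genes Triml1, Triml2 and Adam26b did not hold these letters. No measurement of this series was made at the promoter itself, and the match is a description of the sequence.

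The arrays set limits on each comparison below. The 4 embryos of each group were hybridised on 1 slide of their own, so that the slide and the genotype of the father cannot be told apart. Between 29203 and 35486 probes were well above background on 6 of the arrays, against 39530 in WT father replicate 1 and 38878 in HET father replicate 3. The part of this difference in the results below was not tested, and values without these 2 embryos are given where they bear on a member. The median local background was 50 or 51 on each array of WT fathers. On HET father replicates 1 to 4 it was 30, 32, 32 and 133. The lowest level well above background ran from -6.39 to -5.64 with WT fathers and from -5.39 to -4.55 with HET fathers. What these slide differences add to the values of dim probes was not tested. Over 33093 tested probes, 0 (0.0%) differed between fathers at an adjusted p under 0.01 and at least 2-fold in limma, with 1440 (4.35%) at an unadjusted p under 0.05. Markers of the embryo proper (10 of 10, among them T and Nkx2-5) were well above background on all 8 arrays, as were all 8 markers of yolk sac endoderm. Xist was well above background on the 4 arrays labelled female and on none labelled male.

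Zfp42 was low in embryos of WT fathers and higher in every embryo of HET fathers. The probe A_51_P413376 (NM_009556) read -2.94, -3.40, -3.05 and -3.37 in the embryos of WT fathers, a mean of -3.19 ± 0.23 (SD, n = 4). In the embryos of HET fathers it read -1.09, -1.73, -1.54 and -1.35, a mean of -1.43 ± 0.27 (SD, n = 4). The groups did not overlap, and a gap of 1.21 separated the highest WT from the lowest HET value. The difference was 1.76, or 3.40-fold. On the linear scale the processed intensity went from 108 to 138 in embryos of WT fathers and from 324 to 594 in embryos of HET fathers, and the spot was well above background on all 8 arrays. In whole embryos, more cells with the transcript and more transcript per cell cannot be told apart. The values chose this gene. As background, 557 of the 33093 tested probes (1.68%) were higher in every embryo of HET fathers than in any of WT fathers.

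The F strand of the interval had 3 probes well above background on all 8 arrays, and each was higher in every embryo of HET fathers. A_30_P01022815, the brightest of the strand, read -3.23, -3.14, -3.08 and -3.46 with WT fathers and -2.08, -2.02, -2.43 and -1.96 with HET fathers. Its means were -3.23 ± 0.17 and -2.12 ± 0.21 (SD, n = 4 each), a difference of 1.11 or 2.16-fold. Replicate 3 was the lowest of the HET group at this probe and still lay 0.66 above the highest WT value.

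A_30_P01024917 also separated the groups. It read -4.23, -3.74, -3.62 and -4.42 with WT fathers and -2.49, -2.67, -2.86 and -2.41 with HET fathers, a difference of 1.39 or 2.62-fold. A_30_P01033543 read -3.02, -3.34, -3.43 and -3.93 with WT fathers and -2.44, -2.51, -2.04 and -2.43 with HET fathers, a difference of 1.07 or 2.11-fold. Here HET father replicate 3 was the highest of its group instead of the lowest. Of the 1006 strand-specific intervals of the array with at least 3 tested probes, 1 (0.0994%) had all of its tested probes higher in every embryo of HET fathers, and it was this F strand, which was chosen for that difference.

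The separation of 2 of the 3 bright F probes depended on the scaling of the arrays. With each array shifted by its median instead of its 75th percentile, the groups overlapped at A_30_P01022815 and A_30_P01024917, by 0.57 and 0.46, while their differences stayed at 1.01 and 1.29. Quantile normalization made A_30_P01024917 overlap by 0.23. Across 14 settings that change the values or leave out embryos, the groups stayed apart in all at Zfp42 and at A_30_P01033543, with differences of 1.41 to 1.88 and of 0.73 to 1.21. Their gaps were narrowest under the median shift, at 0.28 and 0.063. Under normexp background correction the 3 bright F probes were under 2-fold, with 0.88 for A_30_P01022815, 0.78 for A_30_P01024917 and 0.73 for A_30_P01033543. Without WT father replicate 1 and HET father replicate 3 the difference was 1.88 for Zfp42, and 1.21, 1.40 and 1.11 for A_30_P01022815, A_30_P01024917 and A_30_P01033543.

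**Figure D1:**
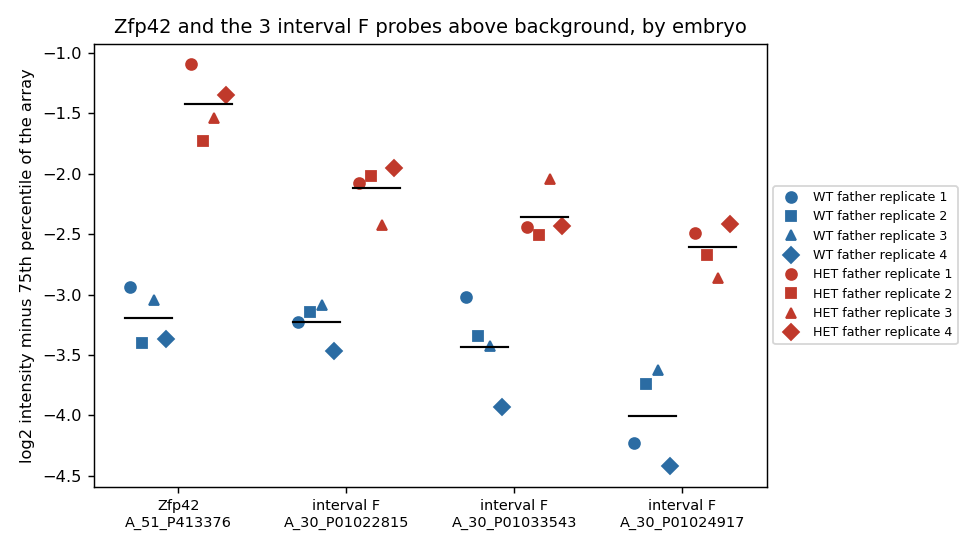
Level of the Zfp42 probe and of the 3 F probes that passed the filter (y axis: log2 intensity minus the 75th percentile of the array) in each of the 8 embryos, with blue for WT fathers, red for HET fathers, a marker shape for each replicate number and a bar at the group mean. All red points of a probe lie above its blue points, with the widest gap, 1.21, at Zfp42.

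The other 7 probes of the interval did not follow the 3 bright F probes. A_30_P01021696 of the F strand was not well above background on any array and read from -7.84 to -6.76 with WT fathers and from -7.20 to -5.01 with HET fathers. A_30_P01028286 was well above background on 1 array only, that of WT father replicate 1, where it read -4.47 against -8.06 to -6.72 in the other 7 embryos. None of these values separated the groups.

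No R probe was well above background in more than 2 embryos of WT fathers or more than 1 of HET fathers. A_30_P01029975, the brightest R probe by mean, read -4.48, -5.79, -6.74 and -6.17 with WT fathers and -7.19, -5.64, -2.62 and -7.26 with HET fathers. The highest value of each group came from WT father replicate 1 and HET father replicate 3, the arrays with the most probes above background, and the groups overlapped, with a difference of 0.11. A_30_P01027708 and A_30_P01019860 were also well above background in HET father replicate 3, at -3.25 and -2.96, and on 2 arrays of WT fathers each, replicate 1 among them. A_30_P01018907 and A_30_P01027506 were not well above background on any array, and their values of -7.57 to -5.27 with HET fathers and -8.21 to -7.73 with WT fathers, though apart within each probe, give no level. The 3 R probes with a measured level were thus well above background in 2 embryos of WT fathers and 1 of HET fathers each.

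**Figure D2:**
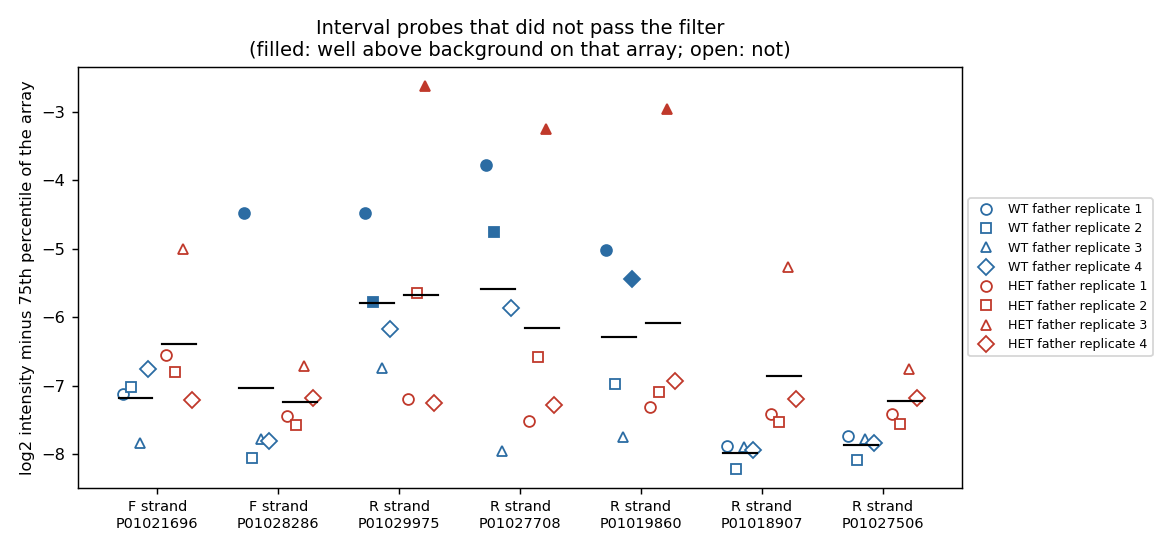
The 7 interval probes that did not pass the filter (y axis: log2 intensity minus the 75th percentile of the array) in each embryo, filled where the spot was well above background on that array and open where it was not, with a bar at each group mean. WT father replicate 1 and HET father replicate 3 hold most filled points, and HET father replicate 3 reads -2.62 at A_30_P01029975.

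Within each group the embryos were not ordered alike by Zfp42 and by the interval. Zfp42 was highest in HET father replicate 1 and lowest in replicate 2, while A_30_P01022815 and A_30_P01024917 were highest in HET father replicate 4 and lowest in replicate 3. Over deviations from the group means (8 embryos, 4 a group), the correlation with Zfp42 was 0.27, 0.32 and 0.25 for A_30_P01022815, A_30_P01033543 and A_30_P01024917. The same measure was 0.82 between A_30_P01022815 and A_30_P01024917 and -0.004 between A_30_P01022815 and A_30_P01033543. These are descriptions over few embryos hybridised on 2 slides. A correlation over all 8 embryos mostly restates the father difference by which the probes were chosen.

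The tested probes most like Zfp42 over the 8 embryos were those of Trim39 (r = 0.99), of the interval chr12:103151385-103157796 on the F strand (0.97) and A_55_P2045224, which has no gene name (0.97). Their father differences were 0.21, 0.42 and 0.10, far smaller than the 1.76 of Zfp42. Mrpl22, Mvb12a and Pvt1 completed the first 6, with r from 0.95 to 0.97. Among 33067 probes compared, A_30_P01022815 took place 8, A_30_P01024917 place 15 and A_30_P01033543 place 36. By deviations from the group means, the first 6 were Zdhhc18, Rbm12b2, XM_286185, Dnajc3, Gpn2 and the R strand of chr8:72076364-72077503, with r from 0.93 to 0.96, and the 3 F probes took places 5126, 5588 and 3928 in the order just given.

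Other interval probes of chromosome 8 differed in both directions. Within 10 Mb on either side the array held 172 further probes in 52 intervals, strands counted apart, of which 74 passed the filter. Their median father difference was -0.03, beside -0.05 over the 6639 tested interval probes of all chromosomes, and 33 were higher and 41 lower with HET fathers. With all 8 embryos, 0 of the 74 were at least 2-fold higher and 2 at least 2-fold lower, with a range of -1.04 to 0.92. The lowest was A_30_P01020150, named after its values were seen, which was well above background on 1 array of HET fathers and overlapped between groups. Groups did not overlap in 2 probes that were higher (2.7%, against 0.542% of the tested interval probes and 1.68% of all probes). They did not overlap in 3 that were lower (4.05%, against 1.99% and 1.48%). At an unadjusted p under 0.05 there were 7 (9.46%, against 4.79% and 4.35%), and no adjusted p of limma was under 1.00 when rounded.

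The highest difference among these neighbours belonged to A_30_P01017499, which lies inside the interval, on the F strand of chr8:41735904-41745741. It read -3.53, -5.63, -6.25 and -5.84 with WT fathers and -5.33, -4.48, -2.44 and -5.34 with HET fathers, a difference of 0.92 ± 0.82 (SE; limma, unadjusted p = 0.298). Its bright embryos were WT father replicate 1 and HET father replicate 3, and the groups overlapped. The difference of this probe rested on them: it was 1.51 without WT father replicate 1, where the bright F probes gave 1.11, 1.32 and 1.21, and 0.27 without HET father replicate 3. The nearest interval on the lower side, chr8:41475940-41476460, had 2 tested F probes, with differences of 0.25 and -0.19. The nearest on the upper side, chr8:41934312-41945487, had tested probes on both strands with differences of 0.21 on F and of 0.13, 0.09 and 0.67 on R. None of these 6 probes had an unadjusted p under 0.05.

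Farther out, an interval on the upper side read lower with HET fathers. The R strand of chr8:42462791-42466106 was lower with HET fathers at A_30_P01022121 (-4.21, -4.45, -4.17 and -4.15 with WT fathers, -5.40, -5.43, -4.81 and -4.69 with HET fathers). The difference was -0.84 ± 0.19 (SE; limma, unadjusted p = 0.0028, adjusted p = 1.00), although the probe was well above background on only 1 array of HET fathers. A_30_P01018515 of the same interval differed by -0.65 with no overlap between groups, and A_30_P01028292, also well above background on 1 array of HET fathers, by -0.99 with overlap. Under normexp background correction these 3 differences shrank to -0.28, -0.28 and -0.17 in the order given. Of the remaining probes at an unadjusted p under 0.05 the largest were A_30_P01030500 and A_30_P01025957, which were not well above background on any array of HET fathers and were at least 1.12-fold and 1.32-fold lower there (differences of -0.22 and -0.055 under normexp), and, in the other direction, A_30_P01031834 and A_30_P01022214, with 0.55 and 0.30. A bound was taken from the mean of the WT group over, on each HET array, the lowest signal well above background or the probe's own level if higher. All 4 had an adjusted p of 1.00 in limma.

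**Figure D3:**
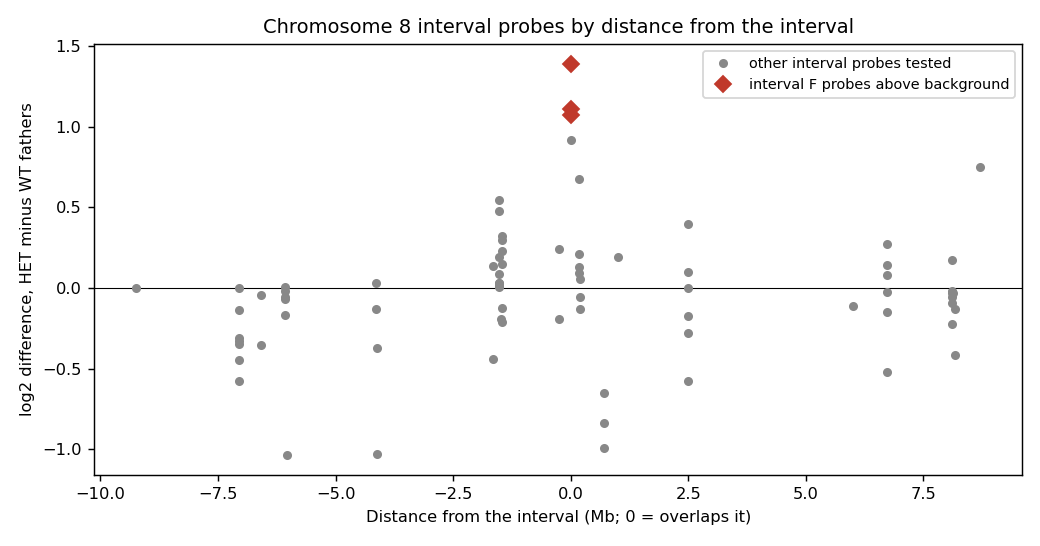
Father difference of interval probes on chromosome 8 (y axis: log2, HET minus WT fathers) by distance from the interval (x axis, Mb), with the 74 tested neighbours in grey and the 3 bright F probes of the interval in red. With all 8 embryos the red points lie at 1.07 to 1.39 and the highest grey one, which overlaps the interval, at 0.92, and that point lies at 1.51 without WT father replicate 1.

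Set against the neighbours embryo by embryo, the bright F probes stood out less in 1 embryo than in the others. Each probe was centred on its mean over the 8 embryos. The members were chosen for reading higher with HET fathers, and the neighbours were not. The members' places after centring were therefore largely set by that choice and are a description. In HET father replicates 1, 2 and 4, A_30_P01022815 lay 0.60, 0.65 and 0.72 above that mean while the median of the 74 neighbours lay at -0.38, -0.03 and -0.07. Only 1, 3 and 1 of the neighbours were further up than this probe in those embryos. In HET father replicate 3 it lay 0.25 up, the neighbours' median was 0.36, and 42 of the 74 were further up. In the embryos of WT fathers it lay at -0.55, -0.47, -0.41 and -0.79, and 1, 12, 12 and 2 neighbours were further down. For Zfp42, the neighbours further up in HET father replicates 1 to 4 numbered 0, 4, 24 and 1, and those further down in WT father replicates 1 to 4 numbered 1, 1, 7 and 0.

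With arrays shifted by the 75th percentile, the 2 genes next to Zfp42 on one side also read higher in every embryo of HET fathers. Neither passed the threshold after adjustment. Under the median shift the groups overlapped at both genes, with HET father replicate 3 below the highest WT value. In the gene order of GRCm38.p6, Triml2 and then Triml1, a pair of tripartite motif family-like genes, precede Zfp42, and Frg1, a gene for an RNA-associated nuclear protein, precedes them. Triml2 read -0.16, 0.09, -0.14 and -0.54 with WT fathers and 1.77, 1.01, 0.98 and 0.84 with HET fathers. The groups did not overlap, and the difference was 1.34 ± 0.23 (SE), or 2.53-fold (limma, unadjusted p = 0.000473, adjusted p = 0.745), which did not pass the threshold. The adjusted p of Triml2 ranged down to 0.282 over the settings tried, and its difference stayed between 1.13 and 1.44.

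Triml1 read -2.24, -2.49, -2.40 and -2.89 with WT fathers and -1.23, -2.07, -1.57 and -2.18 with HET fathers. Every HET value was above every WT value, though by little and not under the median shift. The difference was 0.74 ± 0.24 (SE; limma, unadjusted p = 0.0164, adjusted p = 1.00). Frg1 differed by 0.59 ± 0.27 (SE; limma, unadjusted p = 0.0585), with groups that overlapped. HET father replicate 1 was the highest embryo of its group at Zfp42, Triml2 and Triml1. The lowest of that group was replicate 2 at Zfp42 and replicate 4 at Triml2 and Triml1.

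On the other side, the ADAM metalloprotease genes overlapped between groups or were not measured above background. Adam26b, the next gene, read from -4.30 to -3.43 with WT fathers and from -4.19 to -3.25 with HET fathers, a difference of 0.23 ± 0.25 (SE; limma, unadjusted p = 0.395). Adam26a was well above background on 1 array of each group, with the highest values in WT father replicate 1 and HET father replicate 3, and Adam34l on none. Fat1, a protocadherin gene beyond them, differed by -0.06. The place of the interval among these genes was not determined, since its coordinates are of mm9 and the gene order of GRCm38.p6.

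Across the wider neighbourhood the genes were balanced in direction. Of 86 protein-coding genes listed within 10 Mb of Zfp42 in GRCm38.p6, 85 had a probe and 62 passed the filter, with a median difference of -0.02 and 28 higher and 34 lower. The median of all tested probes was -0.00019. At an unadjusted p under 0.05 there were 10 of the 62 (16.1%, against 4.35%), 6 higher and 4 lower, and none was called after adjustment. Groups did not overlap in 5 genes that were higher (8.06%, against 1.68%) and 3 that were lower (4.84%, against 1.48%). The largest of the latter, named after its values were seen, was Fgl1, a fibrinogen-like gene, at -2.19, where HET father replicate 1 read -6.80 which was not well above background, and the other 3 embryos of HET fathers -3.20 to -2.76. Without that embryo the difference was -1.22 (limma, adjusted p = 0.423). Of the 10 genes on each side of Zfp42, 11 passed the filter, 6 higher and 5 lower. At an unadjusted p under 0.05 in limma were 5 of these (45.5%, against 4.35%), 3 higher and 2 lower. Their groups did not overlap in 3 that were higher (27.3%, against 1.68%) and 1 that was lower (9.09%, against 1.48%).

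**Figure D4:**
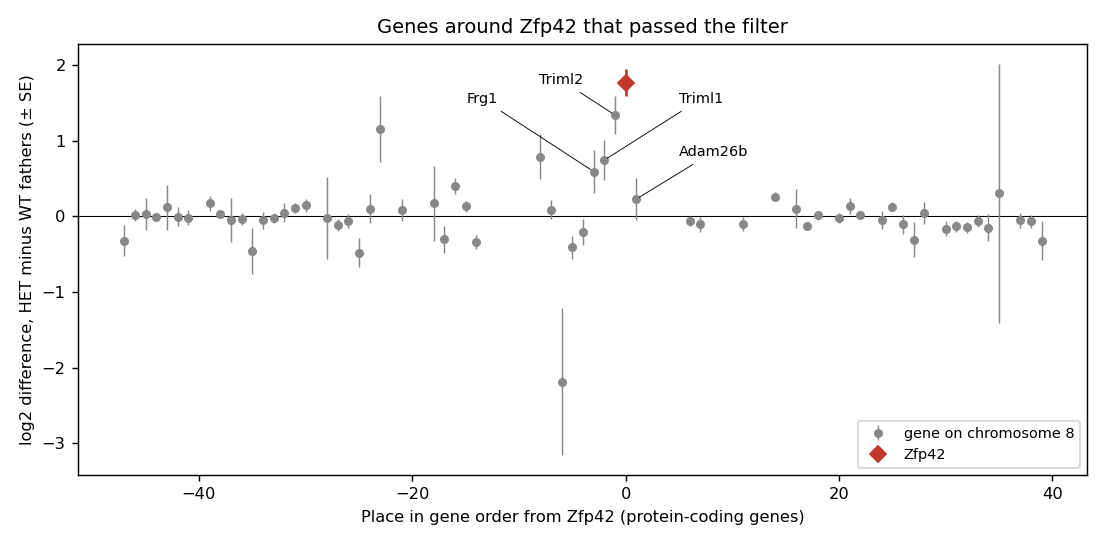
Father difference (y axis: log2, HET minus WT fathers, bars showing the SE from the SDs of the groups) of the 62 tested genes around Zfp42, by place in the gene order (x axis). Triml2, Triml1 and Frg1 on one side of Zfp42 lie at 1.34, 0.74 and 0.59, and Adam26b on the other side at 0.23.

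No other gene of the pluripotency list came near the difference of Zfp42. Zfp42 was chosen for its father difference, so its place beside the list was largely set by that choice and is a description. Of 25 genes listed, 24 passed the filter. They had a median difference of -0.04 and a range from -0.38 to 0.27, with 10 higher and 14 lower, and 0 had an unadjusted p under 0.05 (4.35% of all probes). Pou5f1, the gene of OCT4, read from -3.47 to -2.20 with WT fathers and from -4.37 to -2.04 with HET fathers, a difference of -0.02 ± 0.54 (SE) whose sign changed with the background correction. Nanog, a homeobox gene of the naive state, differed by -0.15 ± 0.18 (SE). Sox2, which also marks the neural plate at this stage, differed by -0.07 ± 0.10 (SE). Esrrb and Tfcp2l1, which act with Zfp42 in naive cells, were at 0.02 and -0.02, and Dppa3 and Dppa4, germ line and early embryo genes, at -0.38 and 0.26 with wide spreads.

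Genes that act with REX1 gave small differences. Yy1 and its retroposed relative Yy2 differed by -0.03 ± 0.06 and -0.12 ± 0.08 (SE), and Rlim by 0.02 ± 0.08 (SE). Under normexp background correction Yy1 turned to 0.07 and Rlim to -0.06. Of the genes of the imprinted domains, Peg3 differed by -0.03 ± 0.15 (SE) and Gnas by 0.08, and Usp29, transcribed from the Peg3 domain, by -0.36. None of the 10 tested genes of these 2 lists had an unadjusted p under 0.05.

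**Figure D5:**
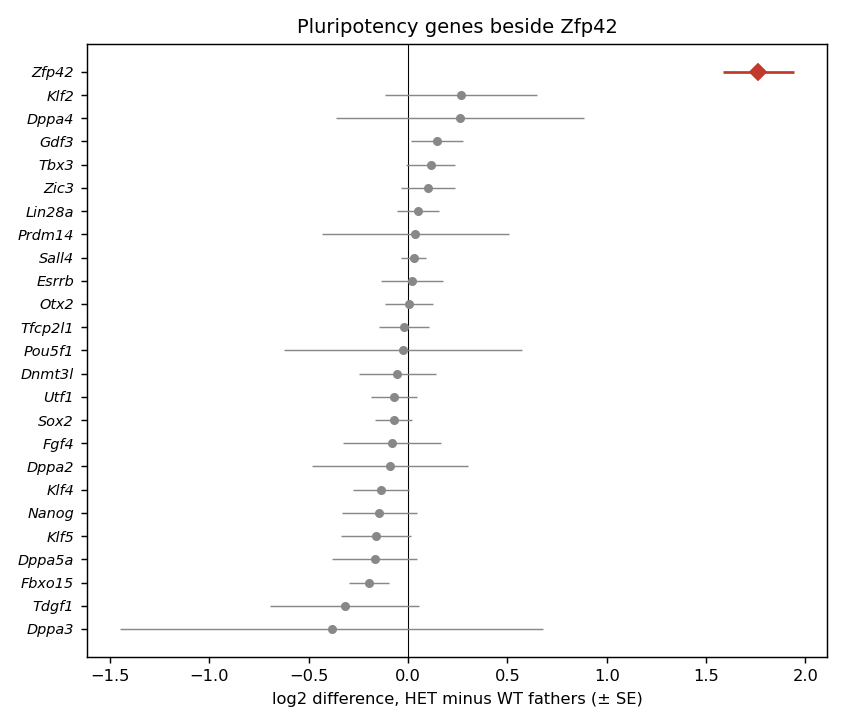
Father difference (x axis: log2, HET minus WT fathers, bars showing the SE from the SDs of the groups) of Zfp42, in red, and of the 24 tested genes of the pluripotency list, in grey. The listed genes lie between -0.38 and 0.27, and Zfp42, which was chosen for its difference, lies at 1.76.

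Markers of tissues in which Zfp42 is known to be expressed gave these values. Of 12 tested markers of extraembryonic ectoderm and trophoblast, 6 were higher and 6 lower, with a median difference of 0.02. The range went from -0.91 at Prl3d1 to 0.53 at Plac1, and 0 had an unadjusted p under 0.05. Their mean level went from 1.07 to 1.31 in embryos of WT fathers and from 1.03 to 1.30 in embryos of HET fathers. Elf5, a defining gene of the trophoblast stem cell, differed by 0.05, and Tpbpa, of the spongiotrophoblast, was not well above background on any array. Of 8 tested germ cell markers the median was 0.02, and the mean level went from -0.95 to -0.87 with WT fathers and from -1.22 to -0.58 with HET fathers. Nanos3, an RNA-binding protein of germ cells, differed by 0.22 (limma, unadjusted p = 0.0323), and Dazl was not well above background on any array.

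Decidual markers were the list whose levels separated the groups. Their mean level over 5 genes went from 0.90 to 1.17 with WT fathers and from -0.02 to 0.87 with HET fathers, and this rested on Prl8a2, a prolactin family gene of the decidua. Prl8a2 read 1.99, 2.92, 1.56 and 2.32 with WT fathers and 0.72, 0.30, -2.61 and 0.54 with HET fathers, a difference of -2.46 ± 0.75 (SE; limma, unadjusted p = 0.0126, adjusted p = 1.00). The other 4 decidual markers differed by -0.07 to 0.23. The direction was opposite to that of Zfp42, and its part in the Zfp42 difference was not tested.

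Sex, which did not enter the choice of the members, made no detectable difference to them. Zfp42 averaged -2.27 in the 4 female and -2.35 in the 4 male embryos, and with father in the fit the difference, female minus male, was 0.09 ± 0.18 (SE; limma, adjusted p = 1.00). A_30_P01022815 differed by 0.21 ± 0.12, A_30_P01033543 by 0.09 ± 0.21 and A_30_P01024917 by 0.15 ± 0.21 (SE; limma, adjusted p = 1.00 for each). Of all tested probes 11 (0.0332%) were called by sex in this fit.

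The father difference of Zfp42 was 1.46 in female and 2.07 in male embryos, with 2 embryos for each father and sex. The interaction, female minus male, was -0.61 ± 0.29 (SE; limma, unadjusted p = 0.0800, adjusted p = 0.996) and did not pass the threshold. For A_30_P01022815 the father difference was 1.17 in females and 1.05 in males, and for A_30_P01024917 1.38 and 1.40. A_30_P01033543 gave 0.75 and 1.39, an interaction of -0.64 ± 0.37 (SE; limma, adjusted p = 0.996). Over all tested probes the interaction called 0 (0.0%), with 736 at an unadjusted p under 0.05.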

How the data were processed

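RNA of 8 embryos was labelled with Cy3 and hybridised to SurePrint G3 Mouse GE arrays. Per the labels, the authors used Agilent Feature Extraction, version 11.0.1.1, for the scans. The deposited intensity is background-subtracted and spatially detrended, with flags per spot. A deposited table over all arrays repeats this intensity with fewer digits. Here control spots and spots with an outlier flag were left out, spots of a probe were averaged, and each array's 75th percentile was subtracted from log2 of the deposited intensity. The percentile of the shift is not given in the sources used here. Probes were tested with limma 3.58.1 in R 4.3.3 where they were well above background on at least 4 arrays and outside the lowest 20% by mean level, with Benjamini-Hochberg adjustment over all 33093 tested probes and thresholds of 0.01 and 2-fold. The fit was tested on simulated data. Tables and plots were made with Python 3.11.15, pandas 2.3.3 and matplotlib 3.10.9. The precision is limited by the number of arrays, 4 a group. The embryos of a group are separate embryos, but the labels do not give their litters in full. The study's breeding plan lists, for either genotype of father, fewer fathers than the 4 embryos measured here. Embryos of a group may therefore share a father. A supplementary legend for this comparison gives 4 for each genotype, which can be read as fathers or as embryos. The SDs, SEs and p-values therefore measure the spread between these embryos and not the spread between fathers.

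RefSeq's table for GRCm38.p6 gave a symbol to 27235 of the 28685 probes that carry a RefSeq accession. A gene was represented by its brightest tested probe. Interval names carry mm9 coordinates of the array design. The members and the gene lists were chosen with earlier results of these data known. The rule for named genes took all member probes, the nearest interval on either side and at most 6 other interval probes within 10 Mb whose groups did not overlap or whose unadjusted p was under 0.05, 3 genes on either side of Zfp42, the named partners of REX1, list genes at an unadjusted p under 0.05, and the 6 probes most correlated with Zfp42 in each of 2 measures. Alternatives were the median shift, quantile normalization, normexp background correction, the rounded table, other filters, outlier spots kept, sex, replicate or embryo code in the fit, other windows and probe summaries, and each embryo left out. Leaving out WT father replicate 1 with HET father replicate 3, and averaging the bright F probes, were added after seeing the data.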

Additional observations from a re-analysis of the deposited data

Results flagged for a closer look

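Of 22 groups of 4 embryos examined over the 11 member probes, 4 had an embryo whose gap to its nearest neighbour took more of the range of the group than Dixon's 95% critical value, and chance passes that value in about 1 of 20 groups. At A_30_P01033543, a bright F probe, HET father replicate 3 read -2.04 with the nearest other embryo at -2.43 (ratio 0.84). At A_30_P01028286 of the F strand, WT father replicate 1 read -4.47 with the nearest at -7.78 (ratio 0.922). On the R strand, HET father replicate 3 stood apart at A_30_P01019860, with -2.96 against -6.94 (ratio 0.912), and at A_30_P01018907, with -5.27 against -7.19 (ratio 0.848). Those embryos are the ones whose arrays had the most probes well above background in their groups.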

How the results depend on the processing

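Of 173 values recomputed for the main comparisons, 162 kept their direction and side of the threshold or moved by less than the spread between embryos. Normexp background correction lowered the difference to 1.41 for Zfp42 and 0.88 for A_30_P01022815, 0.78 for A_30_P01024917 and 0.73 for A_30_P01033543. With single embryos left out, Zfp42 lay between 1.65 and 1.86 and A_30_P01022815 between 1.03 and 1.21. A_30_P01024917 lay between 1.25 and 1.52, and A_30_P01033543 between 0.91 and 1.21. The brightest R probe lay between -0.90 and 0.64. Calls by father numbered 0 or 1 when embryos were left out, 1 (Prim2) without WT father replicate 1, 1 (Med8) without HET father replicate 4 and 1 (Prim2) without WT father replicate 1 and HET father replicate 3, and 0 under the other settings. Probes at an unadjusted p under 0.05 numbered from 478 under the median shift to 5333 with no filter. The median over genes around Zfp42 was -0.12 under the median shift, -0.059 under quantile normalization, 0.016 with no filter and -0.053 without these 2 embryos, which also turned the sex difference of Zfp42 to -0.052. Its interaction turned to 0.13 under the median shift.

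Of the lower probes near the interval, normexp shrank A_30_P01022121 from -0.84 to -0.28. Differences near 0 changed sign. Under normexp, A_30_P01029190 went to 0.015, A_30_P01028856 to -0.0082, Peg3 to 0.0080, Pou5f1 to 0.016, Yy1 to 0.066 and Rlim to -0.058. Under the median shift A_30_P01028856 went to -0.010 and Rlim to -0.086, and under quantile normalization Adam26b to -0.12. With embryo code as a random block Pou5f1 went to 0.068, Rlim to -0.013 and Peg3 to 0.030. With single embryos left out, A_30_P01027446 ranged from -0.40 to 0.51, A_30_P01032489 from -0.024 to 1.03, Pou5f1 from -0.36 to 0.41, Rlim from -0.030 to 0.062 and Peg3 from -0.13 to 0.092, and without WT father replicate 1 and HET father replicate 3 A_30_P01027446 was at -0.11. The causes were not tested. Same-numbered embryos of the groups deviated with correlations of -0.59 to -0.05, so the numbers do not pair them. With embryo code as a random block (correlation 0.54), 0 probes were called and 685 had an unadjusted p under 0.05, with a lowest adjusted p of 1.00. With the replicate number as a block, 0 probes were called and 874 had an unadjusted p under 0.05, beside 1440, and the medians stayed at -0.03 for chromosome 8 interval probes, -0.02 for genes around Zfp42 and -0.04 for the pluripotency list.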
